A study of Mus musculus with 20 samples.

Results

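Slc46a3, Ripor2 and P4ha1 are 3 of the 21780 genes in a table of RNA-seq counts from mouse liver. They were selected on their measured change between mice given PCB 126 and HFD control mice. That change is therefore given here as a description, as is every other comparison of these 3 genes that uses the mice of either group. The table holds 20 libraries, 1 per mouse, in 4 groups of 5. All mice were male C57Bl/6J animals, 8 weeks old at the start, on a high-fat diet (HFD) with 42% of its calories from fat. HFD control mice received the corn oil vehicle, HFD + Aroclor mice received Aroclor 1260 at 20 mg/kg, HFD + PCB 126 mice received 20 µg/kg of PCB 126, and HFD + Aroclor + PCB 126 mice (the combined exposure) received both at these doses. The agents were given as a single gavage at 10 weeks of age, and the diet lasted 12 weeks in all. The labels give 12 weeks of exposure and the methods give 10 weeks. There was no group on a normal diet, so every mouse carried the effect of the HFD.

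PCB 126 is a dioxin-like polychlorinated biphenyl that binds and activates the aryl hydrocarbon receptor (AhR). The activated receptor pairs with ARNT and binds a short DNA element, the dioxin response element, near its target genes, of which the cytochrome P450 genes Cyp1a1 and Cyp1a2 are the best known in liver. Aroclor 1260 is a commercial mixture made mainly of congeners that are not dioxin-like. Slc46a3 encodes a transporter of the lysosomal membrane, Ripor2 encodes an inhibitor of the small GTPase RhoA, and P4ha1 encodes a catalytic subunit of collagen prolyl 4-hydroxylase, the enzyme of the endoplasmic reticulum that hydroxylates proline residues of procollagen.

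The libraries held 21836506 to 36854887 counts each, and the levels below are CPM, counts scaled to the library total after TMM normalisation. Each library's deviation from the mean over libraries depended on gene GC content, and this slope (in log2 units per 10 percentage points of GC) averaged 0.263 ± 0.193 in HFD control, 0.0103 ± 0.0931 with Aroclor, 0.120 ± 0.216 with PCB 126 and -0.394 ± 0.215 with the combined exposure (mean ± SD, n = 5). The combined exposure had the lowest slopes, so GC dependence and that group cannot be fully told apart. After GC correction the members' log2FCs with PCB 126 were 1.54, 1.51 and -1.53 for Slc46a3, Ripor2 and P4ha1. Liver is a mixed tissue, and in bulk RNA fewer cells of a type and less RNA per cell cannot be told apart. The 6 hepatocyte markers summed to 83790 to 118848 CPM in every library. Alb made up most of this sum (group means 57489 to 71216 CPM), so the sum says little of the other markers.

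Slc46a3 (ENSMUSG00000029650) lies on the minus strand of chr5:147878437-147894815 (GRCm38). Its level was lowest in HFD control and highest with PCB 126. The 5 HFD control mice had 35.5, 37.0, 39.5, 18.9 and 30.4 CPM (replicates 1 to 5; mean 32.3 ± 8.17 SD). The 5 PCB 126 mice had 91.3, 86.4, 74.1, 122 and 95.1 CPM (93.7 ± 17.6). Every PCB 126 mouse was above every control mouse, and the log2FC was 1.54 ± 0.181 (SE), which is 2.90-fold. Without any 1 of these 10 mice it was 1.40 to 1.64. With the combined exposure the values were 80.1, 83.0, 65.7, 58.4 and 82.2 CPM (73.9 ± 11.2), and these too were all above the control mice. With Aroclor alone they were 56.3, 47.9, 36.5, 45.5 and 34.7 CPM (44.2 ± 8.80), and 2 of the 5 mice lay within the range of the controls. The order of the means was thus PCB 126, combined exposure, Aroclor, HFD control. The combined and PCB 126 groups overlapped, with a log2FC of -0.34 between them (95% interval -0.71 to 0.03). Aroclor and HFD control overlapped as well, with a log2FC of 0.45 (95% interval 0.08 to 0.82). Control and PCB 126 mice entered the selection, so for all 3 genes the intervals of comparisons with them are not tests.

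The promoter of Slc46a3 is shown because AhR targets are often recognised by the core of the dioxin response element, GCGTG. The window runs from 250 bases before to 50 bases after the annotated start (RefSeq, GRCm38.p6), chr5:147894766-147895065, minus strand. It held no GCGTG on either strand and no ACGTG, and the same window of Cyp1a2 held neither. No match says only that these letters are not in this window.
Slc46a3 promoter: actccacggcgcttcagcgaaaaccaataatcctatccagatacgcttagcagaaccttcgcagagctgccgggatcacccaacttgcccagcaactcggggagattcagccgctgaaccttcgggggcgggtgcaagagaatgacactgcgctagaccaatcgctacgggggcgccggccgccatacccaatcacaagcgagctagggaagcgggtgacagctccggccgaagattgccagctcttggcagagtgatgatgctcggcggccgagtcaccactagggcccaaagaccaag

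Ripor2 (ENSMUSG00000036006) lies on the plus strand of chr13:24582189-24733816. It was the least expressed of the 3 genes, with 0.211 RPKM in HFD control against 13.1 for Slc46a3 and 5.85 for P4ha1 (means of the length-normalised level; exon lengths from GENCODE). HFD control mice had 2.90, 3.22, 3.55, 1.23 and 1.38 CPM (2.45 ± 1.08), and PCB 126 mice had 9.93, 7.22, 5.50, 4.69 and 8.30 CPM (7.13 ± 2.11). The lowest PCB 126 mouse was above the highest control mouse, with a log2FC of 1.52 ± 0.294 (1.36 to 1.70 without any 1 mouse). The combined exposure gave 6.21, 6.39, 7.03, 5.89 and 7.27 CPM (6.56 ± 0.578), the narrowest of the 4 groups for this gene. All 5 of these mice were above all 5 control mice, and they lay inside the range of the PCB 126 mice (log2FC -0.12, 95% interval -0.71 to 0.47). Aroclor gave 5.69, 4.96, 2.11, 4.86 and 2.74 CPM (4.07 ± 1.55), with 2 mice inside the control range and 3 above it (log2FC 0.71, 95% interval 0.10 to 1.32). The order of the means was the same as for Slc46a3.

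RefSeq gives 3 start sites for Ripor2, and the window of the most 3′ of them held the only GCGTG, at the start site itself. It is printed for that reason, with GCGTG in capitals (chr13:24638398-24638697, plus strand). Of all RefSeq windows of this length, 32.4% held at least 1 GCGTG, and 1 of 3 windows is near that share. The other 2 windows held none, and ACGTG occurred 2 times in the first window and 1 time in the printed one. The counts are per gene, so they do not show which start was used.
Ripor2 promoter 3: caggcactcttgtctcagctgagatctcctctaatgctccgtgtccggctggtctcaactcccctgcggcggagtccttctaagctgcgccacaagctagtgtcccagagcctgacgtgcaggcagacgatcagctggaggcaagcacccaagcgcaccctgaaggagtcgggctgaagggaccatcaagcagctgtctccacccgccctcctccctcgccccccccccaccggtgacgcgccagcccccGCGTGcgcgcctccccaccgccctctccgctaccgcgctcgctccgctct

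P4ha1 (ENSMUSG00000019916) lies on the plus strand of chr10:59323296-59373304. It was the member that was lower with PCB 126, and the HFD control mice themselves fell far apart. Their values were 10.2, 12.5, 28.6, 40.4 and 28.5 CPM (24.1 ± 12.6), with replicates 1 and 2 well below the other 3. PCB 126 mice had 9.06, 9.54, 9.07, 7.63 and 7.35 CPM (8.53 ± 0.972). The highest PCB 126 mouse was below the lowest control mouse, but only by the step from 9.54 to 10.2 CPM, and the log2FC was -1.49 ± 0.279 (-1.69 to -1.22 without any 1 mouse). With Aroclor the values were 9.21, 11.0, 18.1, 13.3 and 15.7 CPM (13.5 ± 3.56), and 4 of the 5 were inside the control range. The combined exposure gave 12.4, 13.8, 10.1, 11.0 and 9.90 CPM (11.4 ± 1.65), and 3 of these 5 mice were inside the control range. Every mouse of the combined exposure was above every PCB 126 mouse, although the log2FC between them was 0.42 (95% interval -0.16 to 1.00). Correcting for GC brought that log2FC to 0.22, and a GC slope covariate brought it to -0.0488, so its direction is not settled in a group with the lowest GC slopes. Against HFD control, the log2FC was -0.83 with Aroclor (95% interval -1.40 to -0.26) and -1.07 with the combined exposure (95% interval -1.64 to -0.49), the latter -1.60 when the GC slope was a covariate. The order of the means was HFD control, Aroclor, combined exposure, PCB 126, the reverse of the other 2 genes.

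The P4ha1 window (chr10:59323046-59323345, plus strand) held 2 copies of GCGTG, 163 and 126 bases before the start, shown in capitals. It also held 1 copy of ACGTG, the core of the hypoxia response element, on the reverse strand 16 bases before the start. Of 32817 RefSeq windows of this length, searched on both strands, 32.4% held at least 1 GCGTG, 11.1% held at least 2, and 19.6% held at least 1 ACGTG. Each match is a description of the letters and not a binding site.
P4ha1 promoter: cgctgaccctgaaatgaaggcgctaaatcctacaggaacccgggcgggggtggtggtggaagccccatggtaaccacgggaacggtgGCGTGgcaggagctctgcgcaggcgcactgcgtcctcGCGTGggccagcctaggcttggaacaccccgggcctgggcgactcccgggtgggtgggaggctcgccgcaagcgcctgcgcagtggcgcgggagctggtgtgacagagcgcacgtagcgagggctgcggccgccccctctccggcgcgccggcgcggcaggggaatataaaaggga

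**Figure D1:**
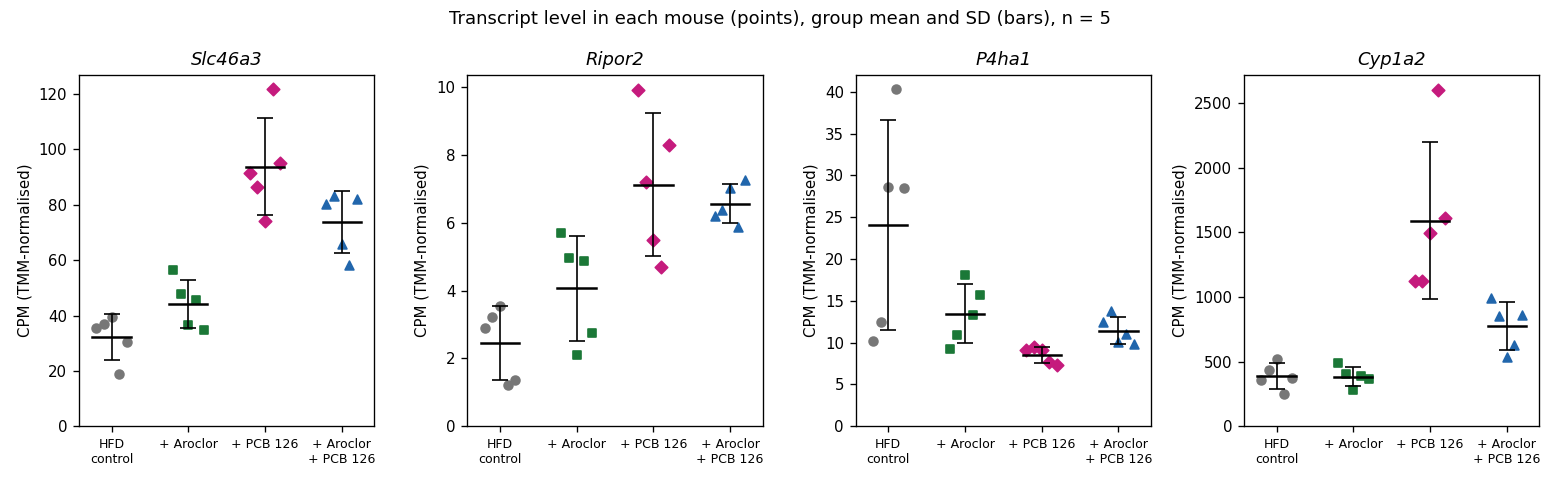
Levels of the 3 genes and Cyp1a2 in CPM (y axis, from 0) in the 4 groups (x axis), with 1 point per mouse and bars for the group mean and SD. Slc46a3 and Ripor2 were above all 5 control mice in both groups given PCB 126, while the P4ha1 control mice spread from 10.2 to 40.4 CPM.

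All 3 genes were among the 18 genes past an adjusted p of 0.05 between PCB 126 and HFD control, which follows from their selection. Of 15522 genes tested, 16 were higher (0.103%) and 2 lower (0.0129%). Non-overlap between these groups was seen in 1.23% of genes in the higher direction and 0.908% in the lower, and between the combined exposure and HFD control in 10.6% in the higher direction. Non-overlap between the combined exposure and PCB 126, seen for P4ha1, held for 3.97% of genes in the higher direction. For Cyp1a2 the combined mice were all below the PCB 126 mice, as were those of 5.93% of genes.

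The comparison of the combined exposure with Aroclor asks whether PCB 126 changed the genes in mice that also received Aroclor. Its 10 mice were not in the comparison that selected the genes, but earlier results of these data were known at the choice. None of the 3 genes passed an adjusted p of 0.05, Slc46a3 being the nearest. For Slc46a3 the lowest combined mouse, at 58.4 CPM, was just above the highest Aroclor mouse, at 56.3 CPM. Its log2FC was 0.74 ± 0.178 (95% interval 0.37 to 1.11), with an adjusted p of 0.0583 by edgeR's quasi-likelihood test over all genes. For Ripor2 the groups did not overlap either (5.89 against 5.69 CPM at the nearest), and the log2FC was 0.69 ± 0.286 (95% interval 0.09 to 1.28, edgeR adjusted p = 0.160). In this comparison 2.59% of all genes did not overlap in the higher direction. For P4ha1 the groups overlapped, and the log2FC was -0.24 ± 0.274 (95% interval -0.81 to 0.33, edgeR adjusted p = 0.624). By edgeR the 64 genes called, 16 higher (0.103%) and 48 lower (0.309%), thus held no member, while at an unadjusted p under 0.05 there were 3639 genes, Slc46a3 and Ripor2 among them, and DESeq2 called 1343, Slc46a3 among them. With upper-quartile scaling edgeR called 105 higher and 146 lower. By the two-sided exact permutation test of a single gene, which cannot go below 0.00794 with 5 mice against 5, the unadjusted p was 0.00794 for Slc46a3, 0.00794 for Ripor2 and 0.341 for P4ha1. The Slc46a3 result passed the threshold without replicate 3 of the combined exposure (log2FC 0.78, edgeR adjusted p = 0.0292) and with DESeq2 (log2FC 0.74, adjusted p = 0.00417), as well as by edgeR with upper-quartile scaling, filterByExpr, the FPKM filter and the replicate block (adjusted p from 0.0281 to 0.0427), but not without any other single mouse. By edgeR, Slc46a3 did not pass with RLE scaling (adjusted p = 0.0583), no filter (0.0568) or only the 2 groups compared (0.0676). Nor did it pass with GC correction and the replicate block (0.105) or with a GC slope covariate (0.328). After GC correction the log2FC of Slc46a3 was 0.75 (edgeR adjusted p = 0.151), that of Ripor2 0.69 and that of P4ha1 -0.38.

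The estimated effect of PCB 126 was smaller in size in the presence of Aroclor for each of the 3 genes. The difference of the 2 effects on the log2 scale was -0.80 for Slc46a3 (95% interval -1.32 to -0.27), -0.83 for Ripor2 (95% interval -1.68 to 0.01) and 1.25 for P4ha1 (95% interval 0.44 to 2.06). The first of the 2 effects is the one that selected the genes. A gene selected for a large effect tends to show a smaller one elsewhere. No test is attached to these differences, and an interval that leaves out 0 is not read as one. Across all 15522 genes, no difference of this kind passed an adjusted p of 0.05 in edgeR, with 1846 at an unadjusted p under 0.05 and 1 called by DESeq2. Cyp1a2, the reference for the AhR response, also had the larger difference without Aroclor. Its mean was 387 ± 99.4 CPM in HFD control, 385 ± 76.2 with Aroclor, 1590 ± 606 with PCB 126 and 775 ± 186 with the combined exposure. Its log2FC for PCB 126 was 2.04 ± 0.237 without Aroclor and 1.01 ± 0.231 with it (edgeR adjusted p = 0.0537 for the latter). The latter effect passed the threshold with RLE scaling (edgeR adjusted p = 0.0497), upper-quartile scaling, filterByExpr, the FPKM filter, the replicate block and DESeq2 (adjusted p = 0.00233), and without replicate 3 of the combined exposure (edgeR adjusted p = 0.0201), but not after GC correction or without any other single mouse. With Aroclor alone, Cyp1a2 had a log2FC near 0 (-0.0075, 95% interval -0.48 to 0.47).

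**Figure D2:**
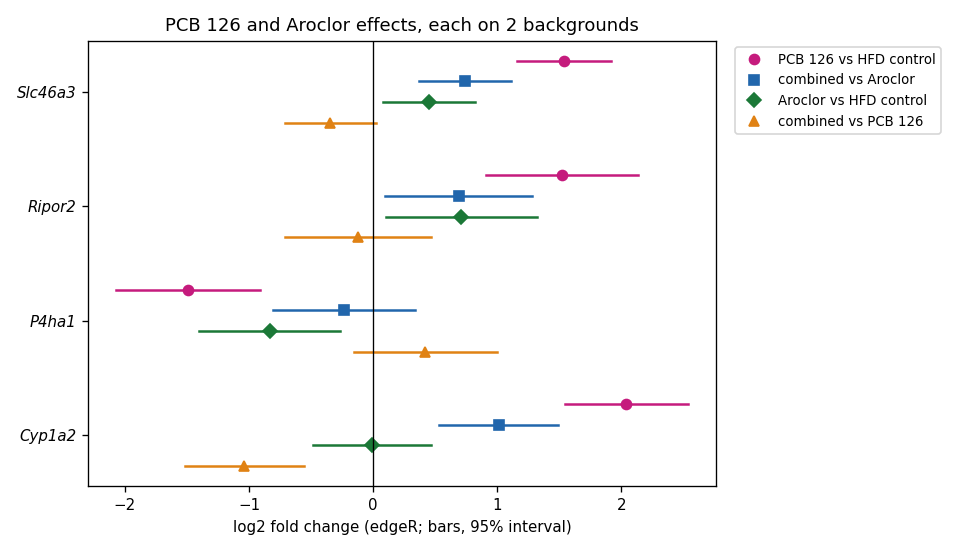
Log2 fold changes (x axis) of the 3 genes and Cyp1a2 (rows) in 4 comparisons, with points for the edgeR estimate and bars for its 95% interval. PCB 126 against HFD control chose the genes. The combined exposure against Aroclor uses none of those mice, with 0.74 for Slc46a3, 0.69 for Ripor2 and -0.24 for P4ha1.

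Slc46a3 and Cyp1a2 tended to rise and fall together. Over the 20 libraries, the Pearson r of their log2 CPM was 0.913, and Cyp1a2 was the gene most like Slc46a3 among the 11341 genes with a mean of at least 1 CPM. The reverse also held. These 20 points share the group means, so the r is a description. With each group's mean removed it was 0.791. The mouse with the highest Cyp1a2, PCB 126 replicate 4 at 2601 CPM, was also the highest for Slc46a3, at 122 CPM. The control mouse with the lowest Cyp1a2, replicate 4 at 249 CPM, was the lowest for Slc46a3, at 18.9 CPM. Not every mouse went this way. PCB 126 replicate 3 had the lowest Slc46a3 of its group (74.1 CPM) at 1495 CPM of Cyp1a2. Replicates 1 and 2 of that group had less Cyp1a2 (1120 and 1127 CPM) and more Slc46a3 (91.3 and 86.4 CPM). PCB 126 replicate 4 stood apart for Cyp1a1 too, with 314 CPM against 4.09 to 62.1 in the other 4 mice of its group.

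In the 10 mice without PCB 126, whose Cyp1a2 levels overlapped between Aroclor and HFD control, the relation was computed. The 5 HFD control mice among these 10 are those whose values entered the selection of the genes, so the p-values below are not independent of it. The permutations also moved values freely between Aroclor and HFD control mice, so these p-values are given as a description. For Slc46a3, Pearson's r was 0.728 (permutation p = 0.0178, adjusted over 6 relations 0.0401) and Spearman's rho was 0.745 (permutation p = 0.0173, adjusted 0.0264). For Ripor2, r was 0.710 (permutation p = 0.0201, adjusted 0.0401) and rho was 0.782 (permutation p = 0.0105, adjusted 0.0264). For P4ha1, r was -0.411 (permutation p = 0.233, adjusted 0.279) and rho was -0.321 (permutation p = 0.367, adjusted 0.440). Without the 2 mice farthest from the median Cyp1a2, r was 0.568 for Slc46a3 (permutation p = 0.141) and 0.611 for Ripor2 (permutation p = 0.102). Both relations thus rest in part on those mice, and without control replicate 4 alone they were 0.470 and 0.550 (permutation p adjusted 0.279 and 0.183). Leaving out single mice, the adjusted permutation p was under 0.05 in 6 of 10 cases for Slc46a3, 3 of 10 for Ripor2 and, for P4ha1, only without control replicate 3 (r = -0.740, adjusted permutation p = 0.0370). As deviations from the group means, r was 0.891 for Slc46a3, 0.831 for Ripor2 and -0.467 for P4ha1 in these 10 mice.

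In the 10 mice with PCB 126, Cyp1a2 fell into separate clusters, 1120 to 2601 CPM with PCB 126 and 537 to 992 CPM with the combined exposure. Each cluster held 5 mice, too few for a correlation within it. The 3 relations over both clusters were computed and are counted in the family of 6, but the gap between the clusters enters them, and the PCB 126 mice also entered the selection, so no result is read from them. As deviations from the group means, r was 0.756 for Slc46a3, -0.605 for Ripor2 and -0.137 for P4ha1, given as a description. Without the 2 mice farthest from the median of these deviations in Cyp1a2, r was 0.571, -0.322 and -0.111. In the PCB 126 group, the mouse highest in Cyp1a2 had the lowest Ripor2 (4.69 CPM) and the mouse lowest in Cyp1a2 the highest (9.93 CPM).

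**Figure D3:**
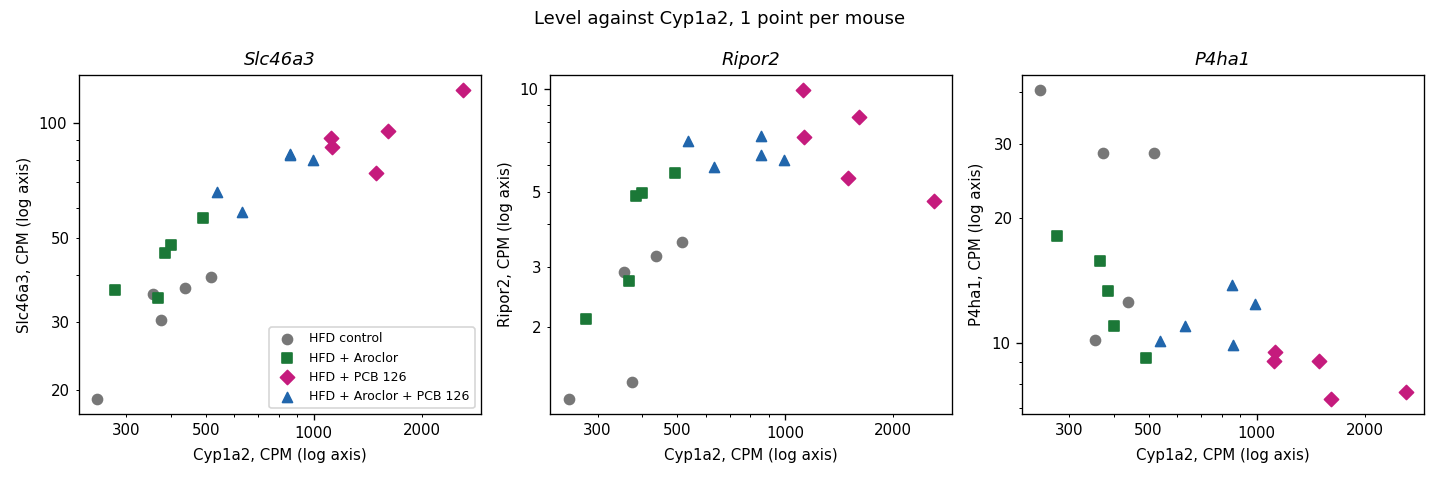
Level of each gene (y axis, CPM, log axis) against Cyp1a2 (x axis, CPM, log axis), with 1 point per mouse marked by group. Slc46a3 is highest, at 122 CPM, in the mouse with the highest Cyp1a2, while Ripor2 is 4.69 CPM in that mouse and 9.93 CPM in the PCB 126 mouse with the lowest Cyp1a2.

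The genes most like each member over the 20 libraries were found among the same 11341 genes. For Slc46a3, Cyp1a2 was followed by Mpv17l (r = 0.907), Lonrf1 (0.897), Nmrk1 (0.890) and Ripor2 (0.875). For Ripor2 they were Prnp (0.943), which encodes the prion protein, Papss2 (0.934), which makes the sulphate donor PAPS, Srbd1 (0.925), Mpv17l (0.916) and Cpped1 (0.912). Cyp1a2 ranked 332 for Ripor2 (r = 0.694, or 0.234 with group means removed). Ripor2 and Prnp kept r = 0.926 with group means removed. Prnp was 47.1 ± 10.6 CPM in HFD control, 60.8 ± 13.5 with Aroclor, 71.5 ± 13.4 with PCB 126 and 82.5 ± 4.47 with the combined exposure. These r values are a description over 20 libraries that share group and depth differences.

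The genes most like P4ha1 included 3 of the heat shock response. The closest were Bag3 (r = 0.950), a co-chaperone of HSP70, Dnajb1 (0.935), an HSP40 co-chaperone, Uspl1 (0.922), Hspa1b (0.921), an inducible HSP70, and Ccdc117 (0.894). With group means removed, r was 0.948 for Bag3, 0.935 for Dnajb1 and 0.938 for Hspa1b. In HFD control, Hspa1b was 1.88 and 3.22 CPM in replicates 1 and 2, and 31.8, 104 and 41.4 CPM in replicates 3 to 5. These were the same 3 mice in which P4ha1 was high. Bag3 was 29.8 and 29.9 CPM in the first 2 of these mice and 80.9, 112 and 83.0 CPM in the other 3. In the PCB 126 group, Bag3 was 23.0 to 29.0 CPM and P4ha1 was 7.35 to 9.54 CPM. The log2FC between PCB 126 and HFD control was -1.35 for Bag3, -1.76 for Dnajb1 and -3.24 for Hspa1b. Hspa1b has a near-identical copy, Hspa1a, so reads that match both may be missing from its counts or placed on either gene. Whether heat shock gene expression had a part in the P4ha1 difference was not tested.

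**Figure D4:**
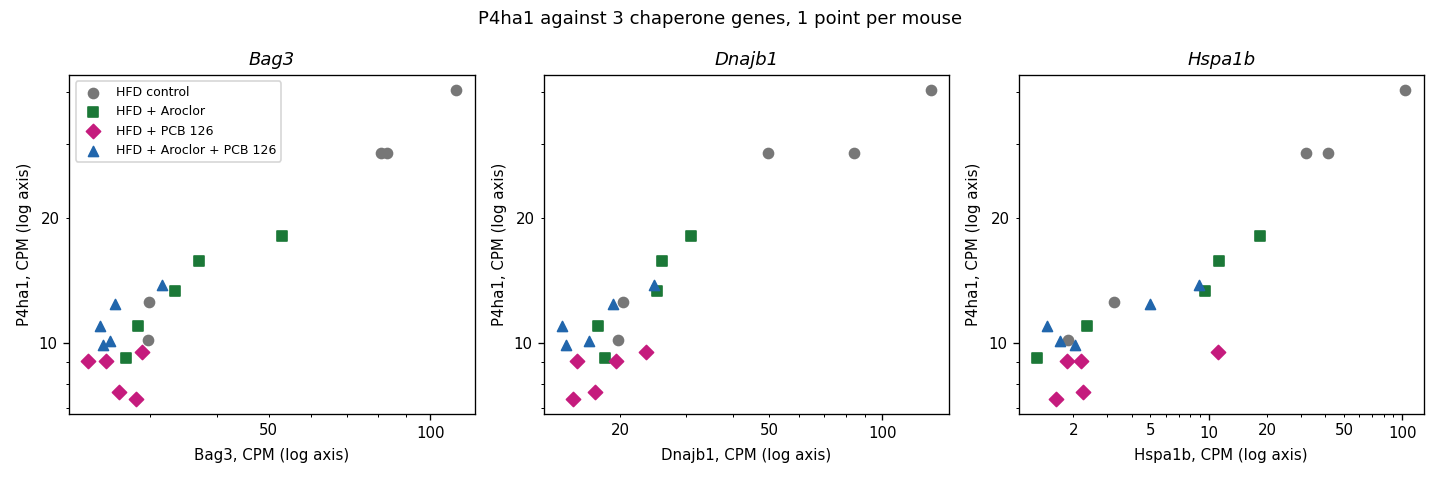
P4ha1 (y axis, CPM, log axis) against Bag3, Dnajb1 and Hspa1b (x axes, CPM, log axes), with 1 point per mouse marked by group. HFD control replicates 3 to 5, at 28.5 to 40.4 CPM of P4ha1, are the highest of all mice for P4ha1, Bag3, Dnajb1 and Hspa1b.

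Lists of other genes of each member's pathway and family were read by edgeR in the 2 comparisons, PCB 126 against HFD control and the combined exposure against Aroclor. The counts of list members below stand against all genes, of which 14.7% and 23.4% had an unadjusted p under 0.05 in the 2 comparisons and 2.34% and 12.6% of those given an adjusted p by DESeq2 were called by it. Of 12 AhR targets, 2 passed the test between PCB 126 and HFD control, both higher, and none did between the combined exposure and Aroclor (3 at an unadjusted p under 0.05, 2 by DESeq2). The 2 were Cyp1a2 (above) and Cyp1a1, with a log2FC of 6.93 ± 1.08 (edgeR adjusted p = 0.00950), or 4.94 without PCB 126 replicate 4. The Cyp1a1 call was lost with only the 2 groups in the fit (log2FC 6.96, edgeR adjusted p = 0.179), which left 1 of the 12 called. Between the combined exposure and Aroclor, 1 of the 12, Cyp1a2, passed by edgeR with RLE or upper-quartile scaling, filterByExpr, the FPKM filter and the replicate block. Cyp1a1 had 0.612 ± 0.284 CPM in HFD control and 1.32 ± 0.746 CPM with the combined exposure, where its log2FC against Aroclor was 0.53 ± 1.03 (edgeR adjusted p = 0.782). The median of the 12 was 0.31 with PCB 126 and 0.36 in the combined exposure against Aroclor, while the median of all genes tested was -0.02 and 0.02. The receptor Ahr had log2FCs of 0.14 and 0.16 and its partner Arnt 0.39 and 0.50 in the 2 comparisons (edgeR adjusted p = 0.0558 for the last).

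Slc46a1 encodes the proton-coupled folate transporter of the same family as Slc46a3. Its level was 37.5 CPM in HFD control and 37.7 CPM with PCB 126 (log2FC 0.01 ± 0.162, edgeR adjusted p = 0.995), and its log2FC was -0.43 ± 0.163 in the combined exposure against Aroclor (edgeR adjusted p = 0.133). Slc46a2 had no counts. Of 13 copper-handling genes and 18 lysosomal genes, none passed in either comparison. At an unadjusted p under 0.05 these were 0 and 3 of the copper genes and 1 and 6 of the lysosomal genes in the 2 comparisons, and DESeq2 called 3 lysosomal genes, all in the second. Their median log2FCs with PCB 126 were -0.01 and 0.07.

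For the RIPOR family, Ripor1 had log2FCs of -0.21 ± 0.150 and -0.45 ± 0.152 and Ripor3 of -0.64 ± 0.355 and -0.99 ± 0.369 in the 2 comparisons, and neither passed by edgeR. In the combined exposure against Aroclor, Ripor1 passed with DESeq2 (adjusted p = 0.0381). It also passed without replicate 3 of the combined exposure (log2FC -0.58, edgeR adjusted p = 0.0335). Ripor2 is also expressed in lymphocytes, whose 6 markers summed to 1.75 to 6.88 CPM in HFD control, 4.00 to 7.29 CPM with Aroclor, 3.58 to 4.92 CPM with PCB 126 and 2.94 to 5.90 CPM with the combined exposure. These ranges overlapped, and none of the 6 passed in either comparison, by edgeR at either p or by DESeq2. Their part in the Ripor2 difference was not tested.

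Of the other collagen prolyl 4-hydroxylase genes none passed, at an unadjusted p or by DESeq2 either. P4ha2 had a log2FC of -0.36 ± 0.219 and P4hb, which is also protein disulphide isomerase, one of 0.11 ± 0.101 with PCB 126 (edgeR adjusted p = 0.451 and 0.656). In the combined exposure against Aroclor the values were -0.30 ± 0.220 and -0.16 ± 0.101. P4ha3 was near 0 counts, and P4htm, a related transmembrane prolyl hydroxylase, had -1.14 ± 0.618 and -0.83 ± 0.638. Of 18 genes of collagen and its modification, none passed (5 and 7 at an unadjusted p under 0.05, 1 and 5 by DESeq2), with medians of -0.37 and -0.40. Among them was Serpinh1, the collagen chaperone HSP47, at -0.83 and -0.69 (edgeR adjusted p = 0.0548 and 0.0618). None of 14 HIF-1 targets passed (6 and 3 at an unadjusted p under 0.05, 1 and 2 by DESeq2, medians 0.06 and 0.03). The 6 stellate cell markers, the cells that make most liver collagen, summed to 137 to 291 CPM in HFD control, 256 to 368 CPM with Aroclor, 177 to 346 CPM with PCB 126 and 301 to 350 CPM with the combined exposure. The range of the combined exposure lay above that of HFD control, a non-overlap seen in 10.6% of all genes tested. The PCB 126 and HFD control ranges overlapped. Dcn was the largest part of these sums (group means 131 to 198 CPM). Dcn has 40.1% GC, and the GC slopes were lowest with the combined exposure and highest in HFD control. GC dependence and exposure cannot be told apart in these sums. The markers' log2FCs with PCB 126 ran from -1.15 (Des) to 0.23 (Lrat). Of the 6 markers none passed by edgeR in the 2 comparisons (1 and 1 at an unadjusted p under 0.05, 1 and 0 by DESeq2). Their part in the P4ha1 difference was not tested.

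Of 6 macrophage, 6 endothelial, 4 cholangiocyte and 4 tested neutrophil markers, none passed in either comparison by edgeR or DESeq2, and 2 endothelial markers with PCB 126 were the only ones at an unadjusted p under 0.05. Of 6 hepatocyte markers none passed by edgeR (1 and 4 at an unadjusted p under 0.05, 0 and 1 by DESeq2), and of the 6 AhR complex genes none did (1 and 3 at an unadjusted p under 0.05, 1 and 2 by DESeq2).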

How the data were processed

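Liver RNA of 20 mice was sequenced. The authors prepared stranded polyA libraries, used 2 sequencing runs, and mapped and counted the reads per Ensembl gene on GRCm38.p6; the submitters' processing notes name FastQC 0.10.1, STAR 2.6 and HTSeq 0.10.0. The deposited values are raw counts. The annotation release and strand setting are not given in the sources used here, and which library was in which run was not used. The paper's methods give 5 livers per group, and each library is taken as 1 mouse on that ground. No replicate pair of the same group agreed within sampling noise, which by itself does not show separate mice. The annotated spans of Slc46a3, Ripor2 and P4ha1 overlap no other gene of the table. That of Ripor2 overlaps 2 annotated genes that are absent from the table.

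Genes with at least 10 counts in all (15522) were normalised by TMM and fitted with edgeR 4.0.16 (R 4.3.3) over the 4 groups, with 16 residual degrees of freedom, the quasi-likelihood test and Benjamini-Hochberg adjustment. CPM are after TMM. RPKM divide by GENCODE M21 exon length, which 21754 of 21780 genes have. Correlations used log2(CPM + 0.5), with 100000 permutations. Alternatives were RLE and upper-quartile scaling, no filter, filterByExpr, an FPKM filter, DESeq2 1.42.0, fits of only the groups compared, the replicate number as a block, GC correction, and each mouse left out. Simulated counts had the same dispersion for every gene and no GC slope, and only genes above a minimum level were changed. Of 200 genes changed by a log2FC of 1 between the combined exposure and Aroclor, 83.5% were recovered, with 6 unchanged genes called. This checks the code and is not the power in the real libraries.

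The members, lists and tests were chosen with earlier results of these data known. The genes named are the 3 members and Cyp1a2, the AhR targets and paralogs, the 5 genes most like each member over the 20 libraries, and in other lists those past the threshold in the combined exposure against Aroclor, of which there were none. The values of 1 AhR target and the counts of 1 list are not reported here. Ahr, Arnt, Serpinh1 and the lymphocyte and stellate sums were chosen after their values were seen. For PCB 126 replicate 2 the title's replicate number was used, since an inner sample number disagrees. Intervals are 95% intervals of the fit, and those of the members in comparisons that use HFD control or PCB 126 mice are not tests.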

Additional observations from a re-analysis of the deposited data

How the results depend on the processing

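The log2FC of Slc46a3 in the combined exposure against Aroclor kept its direction under all alternatives. It passed an adjusted p of 0.05 with upper-quartile scaling (0.75), filterByExpr (0.75), the FPKM filter (0.76), DESeq2 (0.74) and the replicate block (0.75). It did not pass with RLE scaling, no filter, only the groups compared, the GC offset with or without the replicate block, or the GC slope. The cause was not tested. Leaving out 1 mouse gave 0.65 to 0.84. Ripor2 (removed by the FPKM filter) and P4ha1 kept their direction and did not pass under any alternative. The replicate numbers do not pair the mice, so the fit with the replicate block rests on no known pairing. Same-number correlations between Aroclor and the combined exposure ran from -0.12 to 0.37, and 1 of 5 mice correlated best with its own number. With the paired fit, the replicate block, 475 genes were called between the combined exposure and Aroclor and 101 between PCB 126 and HFD control, against 64 and 18 without it. With the GC slope as a covariate, P4ha1 was -1.60 in the combined exposure against HFD control and -0.0488 against PCB 126. Without 1 mouse, Ripor2 in the combined exposure against PCB 126 ran from -0.24 to 0.0284.

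The number of genes called in the combined exposure against Aroclor was 107 (RLE), 251 (upper-quartile), 13 (no filter), 292 (filterByExpr), 636 (FPKM filter), 1343 (DESeq2), 0 (only the 2 groups in edgeR), 6 (GC offset) and 2 (GC slope). Without 1 mouse it ran from 0 to 1011, the latter without combined replicate 3. Between PCB 126 and HFD control it was 9 (upper-quartile), 68 (filterByExpr), 47 (FPKM filter), 310 (DESeq2), 4 (only the 2 groups), 51 (GC offset), 117 (GC offset with replicate block) and 756 (GC slope), and 4 to 131 without 1 mouse, the latter without PCB 126 replicate 3. The 0 counts are edgeR's; the fit of all groups had 3639 genes at an unadjusted p under 0.05. Calls between PCB 126 and HFD control were 7 higher and 2 lower with upper-quartile scaling and 39 and 12 after the GC offset. Scaling moved the median of all genes by less than 0.1.

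Some other named genes, none past the threshold as reported, changed sign. In the combined exposure against Aroclor the GC slope gave Cyp1b1 -0.68 (from 0.90), Tiparp -0.72 (from 0.18), Ahrr -0.63 (from 0.50), Aldh3a1 1.08 (from -0.18), Ugt1a6b -0.24 (from 0.23), Ripor3 0.00543 (from -0.99) and P4ha3 -0.0806 (from 0.27), and with PCB 126 Tiparp -0.0652 (from 0.31) and Aldh3a1 0.0820 (from -0.42). The GC offset gave Tiparp -0.11 (with replicate block -0.12), Nqo1 -0.0136 (-0.000423; from 0.11) and P4hb 0.0409 (0.0420; from -0.16) in the combined exposure against Aroclor, and P4ha3 0.0374 (0.0662; replicate block alone 0.00471; from -0.0238) with PCB 126. Slc46a1 with PCB 126 was -2.29e-05 (RLE), -0.0331 (upper-quartile), -0.00130 (filterByExpr), -0.0131 (FPKM filter) and -4.23e-05 (DESeq2). Without 1 mouse, the ranges with PCB 126 were -1.18 to 0.0391 (Cyp1b1, from -0.88), -0.00847 to 0.98 (Ahrr, from 0.31), -0.0723 to 0.43 (Nqo1, from 0.17), -2.49 to 0.47 (Aldh3a1), -2.05 to 0.14 (Gsta1, from -0.40), -0.0973 to 0.12 (Slc46a1) and -0.37 to 0.44 (P4ha3), and in the combined exposure against Aroclor -0.13 to 1.14 (Cyp1b1), -0.0148 to 0.77 (Ahrr), -0.82 to 0.46 (Aldh3a1) and -0.67 to 1.20 (P4ha3). The correlations with Cyp1a2 without 1 mouse ran, in mice with PCB 126 over both clusters, from 0.72 to 0.94 (Slc46a3), -0.42 to 0.21 (Ripor2) and -0.75 to -0.56 (P4ha1), and in mice without it from 0.47 to 0.82 (Slc46a3), 0.55 to 0.81 (Ripor2) and -0.74 to -0.0198 (P4ha1), each lowest in size without control replicate 4 in the latter mice.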
